A study of Mus musculus with 36 samples.

Results

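Regulatory macrophage cultures that had received no stimulus (Mreg_no IFN-γ, called the serum culture here) were compared with macrophages treated with dexamethasone (M2c). The samples were taken by title, 3 arrays of each group, which made 6 of the 36 arrays of the series. A further 3 arrays of untreated macrophages (M0) served as the medium control of the steroid group. All 3 groups started from mouse bone marrow monocytes sorted as CD11b+ Ly6C+ Ly6G- cells and were harvested after 7 days in culture. The serum culture was grown with 10% human AB serum, 10% FCS and 5 ng/ml M-CSF. M2c cells were grown with 10% FCS and 20 ng/ml M-CSF and met dexamethasone at 1e-07 M for the last 24 h, while M0 cells had the same medium and no stimulus. Human serum, the M-CSF dose and dexamethasone therefore differed at once between the serum culture and M2c, and their effects cannot be told apart. The labels name no animals, and it is therefore unknown whether the 3 arrays of each group are biological replicates; the p-values below describe array-to-array spread, which may be technical.

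Dexamethasone is a synthetic glucocorticoid. It binds the glucocorticoid receptor, encoded by Nr3c1, which waits in the cytoplasm with Hsp90 chaperones, and the loaded receptor enters the nucleus, binds paired hexamers in DNA and raises genes such as Tsc22d3, Fkbp5 and Per1. In macrophages it also lowers many inflammatory genes and raises scavenger and efferocytosis receptors. Adult serum carries cortisol, the natural ligand of the same receptor, among many other hormones, lipids and growth factors, none of which was measured here. The comparison asks how far a serum-fed culture that never met dexamethasone resembled steroid-treated macrophages.

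Levels are log2 of the processed spot signal after scaling each array to its own 75th percentile, so a level of 0 equals the brightness of that percentile. Across the 9 arrays used, 53.7 to 57.6% of probes were well above background, and no spot was saturated. A gene was called at an adjusted p under 0.05 in limma, adjusted over the 17606 genes tested. A fold is written "at least" where the probe was above background on no array of the dimmer group, whose signal was then raised to the lowest signal called above background. Probe positions are those deposited, on build mm8. In cultures of mixed cells, fewer cells of a kind and less RNA per cell cannot be told apart.

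The serum culture and M2c differed widely. Of the genes tested, 7145 were called, which is 40.6%: 3814 were higher in the serum culture (21.7%) and 3331 were lower (18.9%). The change was at least 2-fold for 1417 of the higher and 1414 of the lower genes. Against M0, the serum culture differed at 5483 genes (31.1%), with 3128 higher (17.8%) and 2355 lower (13.4%). Dexamethasone itself, M2c against M0, gave 3598 calls (20.4%), 1832 higher (10.4%) and 1766 lower (10%). These 3 comparisons share arrays, and their values are therefore only set side by side.

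Over all genes, the serum culture lay closer to untreated M0 cells than to M2c. The root mean square log2 difference between group means was 0.843 to M0 and 1.002 to M2c. Its nearest group was Mreg, the same culture given IFN-γ, at 0.789, and M2c ranked 5 among the 11 other groups. M2c in turn lay nearest to M0, at 0.71. Single arrays correlated at 0.951 to 0.965 between the serum culture and M2c, at 0.963 to 0.975 between the serum culture and M0, and at 0.987 to 0.993 within the serum culture.

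**Figure D1:**
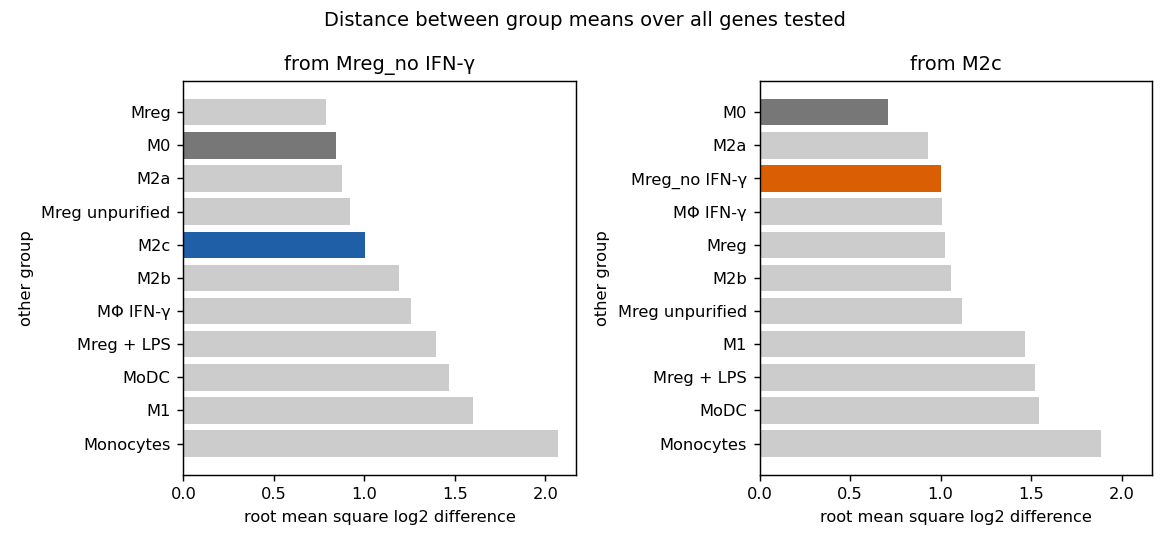
Bars give the root mean square log2 difference between group means over all genes tested, from Mreg_no IFN-γ (left) and from M2c (right) to each of the 11 other groups. M0 is at 0.843 and M2c at 1.002 from the serum culture, and M0 is the group nearest to M2c at 0.71.

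The replicate number of the labels coincided with the scan day: replicate 1 of every group was scanned on one day, replicates 2 and 3 on the other. With the scan day as a fixed block 7686 genes were called between the serum culture and M2c, and 5994 within the day that held replicates 2 and 3; the other day held 1 array a group and gives no test. The compared groups never shared a slide, so slide and group cannot be told apart directly; with slide as a random block, 7219 genes were called. Single arrays stood apart at few genes. In replicate 2 of the serum culture, 24 genes were over 4-fold higher and 12 over 4-fold lower than the other 2 arrays, counted where those 2 lay within 0.5 on the log2 scale, among 14231 genes above background on all 3. In replicate 2 of M2c, 19 genes were over 4-fold lower and 1 was higher.

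Genes that glucocorticoids are known to raise were the main comparison for resemblance. Their list was chosen with earlier results of these data known, and no test of the list was run. It includes Ms4a8a and Sult1a1, which are among the 10 largest rises of M2c over M0 here. Of the 30 genes listed, 28 were tested, and dexamethasone raised 17 of them and lowered 4 against M0. The serum culture had 13 higher and 4 lower than M0 (1 of the 13, Ms4a8a, was below background in both groups). Set directly against M2c, it had 14 lower and 6 higher. The median log2 difference of the 28 genes was 1.82 for M2c against M0, 0.93 for the serum culture against M0 and -0.73 for the serum culture against M2c. The same medians over all genes tested were 0.03, 0.07 and 0.03. The shares of all genes called were 10.4% higher and 10% lower for M2c against M0. For the serum culture they were 17.8% higher and 13.4% lower against M0, and 21.7% higher and 18.9% lower against M2c.

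Of the 17 members that dexamethasone raised, 9 were also higher in the serum culture than in M0, 1 was lower and 7 were not called. Against M2c, 12 of the 17 were lower in the serum culture, 1 was higher and 4 were not called. The 17 were chosen on the same M2c and M0 arrays. These counts are therefore partly set by that choice and are given as a description. The list thus held genes at intermediate levels, genes as high as in M2c, and genes that stayed near M0.

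**Figure D2:**
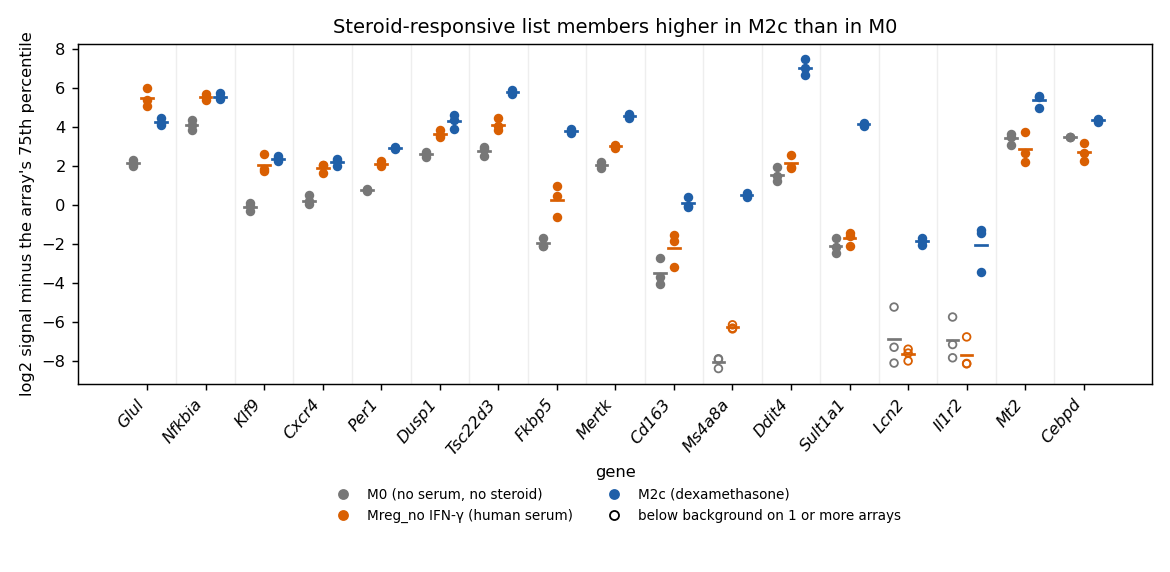
Points are the 3 arrays of each group and short lines their means, in log2 signal minus the array's 75th percentile, for the 17 list members called higher in M2c than in M0 (open points: below background on 1 or more arrays of the group). Genes run from Glul, above the M2c level in the serum culture, to Cebpd, below the M0 level; for Tsc22d3 the means are 2.80 in M0, 4.13 in the serum culture and 5.80 in M2c.

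The first kind took an intermediate level. Tsc22d3, which encodes the anti-inflammatory glucocorticoid-induced leucine zipper (probe at chrX:135886092-135886152), had levels of 4.05, 4.48 and 3.87 in the serum culture, 5.81, 5.71 and 5.89 in M2c, and 2.54, 2.88 and 2.97 in M0. The 3 groups did not overlap. The serum culture was 2.52-fold above M0 (log2 1.33, SE 0.24, adjusted p = 8e-05) and 3.19-fold below M2c (log2 -1.67, SE 0.24, adjusted p = 2.5e-06). All 3 probes for the gene gave this order, with log2 differences between the serum culture and M2c of -1.67, -1.67 and -1.51.

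Fkbp5, a co-chaperone that the receptor induces and that damps the receptor in return (probe at chr17:28127522-28127581), showed the widest gap of the intermediate genes. Its levels were 0.97, -0.61 and 0.47 in the serum culture, 3.70, 3.83 and 3.89 in M2c, and -1.65, -2.09 and -2.06 in M0. The groups were again separate, with more spread in the serum culture than in either other group. The serum culture stood 4.64-fold above M0 (log2 2.21, SE 0.36, adjusted p = 3e-05) and 11.5-fold below M2c (log2 -3.53, SE 0.36, adjusted p = 1.7e-08).

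Per1, a circadian repressor and direct receptor target, had levels of 2.28, 2.13 and 2.02 in the serum culture, 2.91, 2.96 and 2.99 in M2c, and 0.86, 0.74 and 0.78 in M0. All 3 arrays of the serum culture lay between the other groups, 2.55-fold above M0 (adjusted p = 8.6e-06) and 1.75-fold below M2c (adjusted p = 0.002). Dusp1, a phosphatase that switches off p38 and JNK, had 3.86, 3.61 and 3.48 in the serum culture against 3.93, 4.62 and 4.37 in M2c and 2.48, 2.72 and 2.64 in M0. Its rise over M0 was 2.05-fold (adjusted p = 0.0023). Its gap to M2c was 1.58-fold (adjusted p = 0.038) and was not called without replicate 2 or 3 of either group (adjusted p = 0.089 to 0.17), without a filter on dim probes (0.061), or with a replicate block in a fit of only these groups (0.097).

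Mertk, the receptor tyrosine kinase through which macrophages take up apoptotic cells, read 3.12, 2.95 and 3.04 in the serum culture, 4.48, 4.69 and 4.62 in M2c, and 1.93, 2.20 and 2.09 in M0. The arrays were cleanly ordered, but only the 2.95-fold gap to M2c was called (log2 -1.56, SE 0.47, adjusted p = 0.0086, and 0.092 within the scan day of replicates 2 and 3), not the 1.96-fold gap to M0 (adjusted p = 0.12, and 0.0022 in a fit of only these groups). Cd163, the haemoglobin scavenger receptor, had -1.83, -3.16 and -1.52 in the serum culture, 0.43, -0.04 and -0.07 in M2c, and -2.68, -3.68 and -4.01 in M0. Its 4.84-fold gap to M2c missed the threshold (adjusted p = 0.063, and 0.011 in a fit of only these groups), and its arrays overlapped with M0.

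The second kind reached the level of M2c without dexamethasone. Klf9, a Krüppel-like factor induced by the receptor, had 1.87, 2.65 and 1.75 in the serum culture and 2.41, 2.53 and 2.27 in M2c, against 0.14, -0.03 and -0.30 in M0. The serum culture was 4.44-fold above M0 (adjusted p = 7.4e-06), and its difference from M2c was -0.31 (SE 0.32, adjusted p = 0.47). Nfkbia, the inhibitor that holds NF-κB in the cytoplasm, had 5.72, 5.40 and 5.53 in the serum culture, 5.55, 5.74 and 5.45 in M2c, and 4.37, 4.14 and 3.84 in M0. Its difference from M2c was -0.03 (SE 0.23, adjusted p = 0.93), beside a 2.70-fold rise over M0 (adjusted p = 2.3e-05). Cxcr4, a chemokine receptor, had 2.05, 2.09 and 1.67 against 2.04, 2.29 and 2.38 in M2c and 0.05, 0.51 and 0.20 in M0, a difference from M2c of -0.30 (SE 0.33, adjusted p = 0.51). For these genes the arrays of the serum culture and M2c overlapped, and neither group overlapped with M0; the missed threshold does not show that the levels were equal.

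Glul, the glutamine synthetase gene, went past the steroid level. Its arrays read 6.02, 5.09 and 5.38 in the serum culture, 4.48, 4.24 and 4.11 in M2c, and 2.31, 2.14 and 2.03 in M0. The serum culture was 2.33-fold above M2c (log2 1.22, SE 0.27, adjusted p = 0.0007) and 10.1-fold above M0 (adjusted p = 1e-09).

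The third kind followed dexamethasone and not the serum culture. Ddit4, which encodes an inhibitor of mTORC1 (probe at chr10:59345095-59345154), had 6.68, 7.48 and 7.02 in M2c, against 2.58, 1.94 and 1.99 in the serum culture and 1.5, 1.98 and 1.23 in M0. M2c was 29.6-fold above the serum culture (adjusted p = 2.5e-12), whose arrays overlapped with M0 (log2 0.60, SE 0.29, adjusted p = 0.13). Sult1a1, a sulfotransferase for phenols and steroids (probe at chr7:126464239-126464298), had 4.13, 4.24 and 4.09 in M2c, -1.40, -2.06 and -1.59 in the serum culture, and -1.69, -2.12 and -2.43 in M0. It was 57.2-fold higher in M2c than in the serum culture (adjusted p = 9.4e-12), while the serum culture and M0 differed by 0.40 (SE 0.38, adjusted p = 0.48).

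Ms4a8a, a membrane protein of the MS4A family seen in alternatively activated macrophages, was below background on every array of the serum culture and M0. In M2c it read 0.41, 0.62 and 0.51, at least 76.5-fold above the serum culture (adjusted p = 4.4e-13). Il1r2, the decoy receptor for interleukin 1, was likewise below background in the serum culture and was at least 13.2-fold higher in M2c (adjusted p = 7.7e-06). Lcn2, an iron-scavenging lipocalin, was at least 15-fold higher in M2c (adjusted p = 2e-05).

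Metallothioneins and Cebpd fell below M2c as well. Mt2 had 2.67, 3.77 and 2.24 in the serum culture and 5.55, 5.62 and 4.97 in M2c, a 5.6-fold difference (adjusted p = 0.00075), and it was not called against M0 (log2 -0.54, SE 0.56). Mt1 was 2.83-fold lower than in M2c (adjusted p = 7.1e-05); probes of these similar genes may cross-hybridise. Cebpd, a transcription factor of the acute phase, was 3.11-fold lower than in M2c (adjusted p = 5.6e-06) and 1.74-fold lower than in M0 (adjusted p = 0.014, and 0.11 without replicate 2 of the serum culture).

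Other genes of the list were high in the serum culture although dexamethasone did not raise them here. Angptl4, an inhibitor of lipoprotein lipase that also answers to PPARs and hypoxia, read 5.95, 5.86 and 5.89 in the serum culture, 0.99, 1.63 and 1.25 in M2c, and 2.43, 2.81 and 2.63 in M0. M2c was 2.53-fold below M0 (adjusted p = 0.017), a call lost without replicate 2 of M0 (0.062) or replicate 1 (0.072) or 3 (0.051) of M2c and with normexp background correction (0.051). The serum culture was 24.4-fold above M2c (log2 4.61, SE 0.40, adjusted p = 1e-09). Cdkn1c, a cell cycle inhibitor, was 7.70-fold above M2c (adjusted p = 3.2e-08), and Pdk4, which restrains pyruvate oxidation, was at least 2.46-fold above M2c (adjusted p = 4e-07). Anxa1, an anti-inflammatory phospholipid-binding protein, was 2.27-fold above M2c (adjusted p = 0.00028), and its level in the serum culture differed from M0 by 0.19 (SE 0.24, adjusted p = 0.62). Errfi1, a feedback inhibitor of EGF receptors, was 1.81-fold above M2c (adjusted p = 0.0028). Sesn1, a stress-induced sestrin, was 2.95-fold lower than in M2c (adjusted p = 3.6e-07) and did not differ detectably between M2c and M0 (log2 -0.01, SE 0.19). Rgs2, Sgk1, Hif3a and Il10 were not called against M2c, with log2 differences of 0.32, 0.59, 0.20 and -0.38.

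The other groups of the series place these levels. Tsc22d3 averaged 4.33 (SD 0.18) in Mreg and 3.79 (SD 0.42) in the unpurified Mreg, beside 4.13 (SD 0.31) in the serum culture. In the macrophages grown without human serum, other than M2c, its means ran from 1.75 in M1 to 2.80 in M0. Klf9 did not follow that split, since M2a cells, treated with IL-4, averaged 1.49 (SD 0.21) and dendritic cells 2.39 (SD 0.14). Fkbp5 averaged 0.60 (SD 0.80) in Mreg but -2.18 (SD 0.28) in Mreg given LPS, near the -1.93 (SD 0.25) of M0. Ddit4 was between 1.45 and 2.89 in all 11 groups other than M2c, which averaged 7.06 (SD 0.40).

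**Figure D3:**
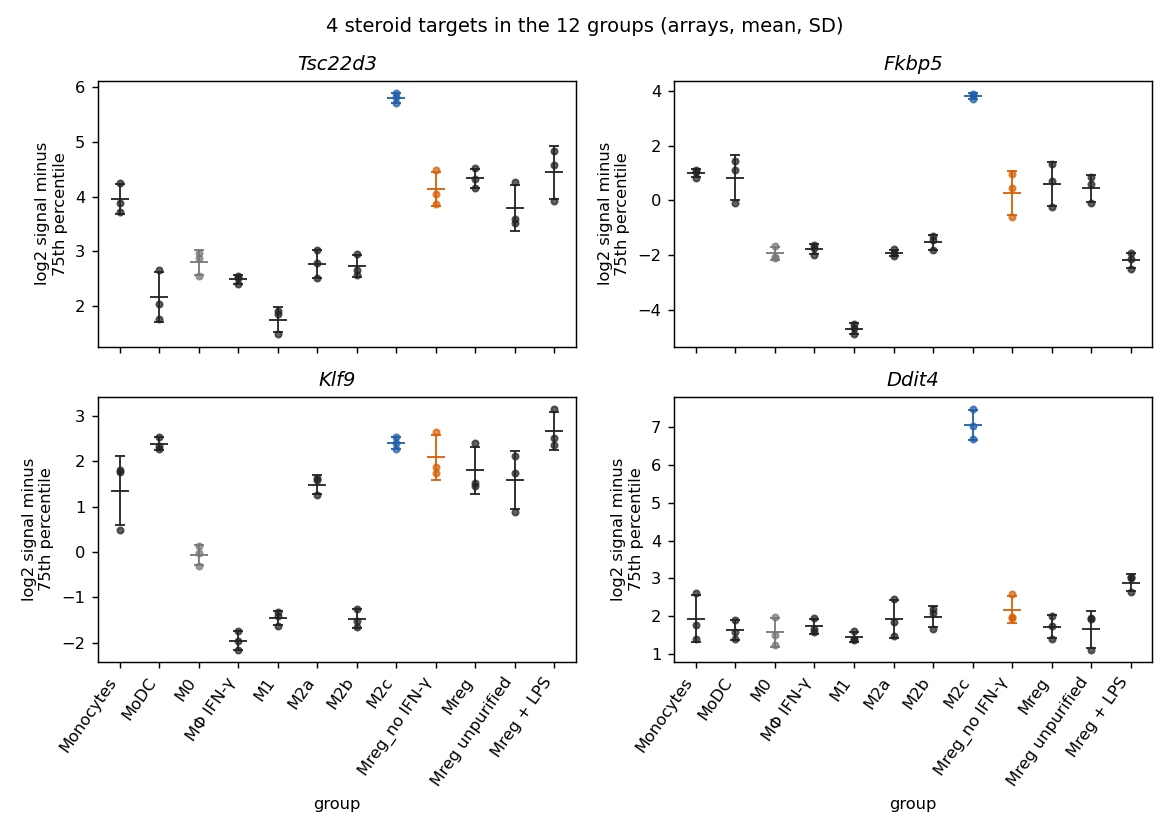
Points are arrays, with the mean and SD of the 3 arrays of each of the 12 groups, in log2 signal minus the array's 75th percentile, for Tsc22d3, Fkbp5, Klf9 and Ddit4. M2c is highest for Tsc22d3, Fkbp5 and Ddit4; the serum culture lies at 4.13 for Tsc22d3 and near M0 for Ddit4 (2.17 and 1.57).

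Promoters of these genes were read for the receptor's binding element, the hexamers AGAACA and TGTTCT with 3 bases between them, which reads the same on both strands. The window ran from 250 bases before to 50 after the start site in RefSeq (GRCm38.p6). Of 28 list members tested, 24 had a promoter in the table. An exact match lay in 1 of the 24 (4.17%), against 3 of 27025 genes (0.0111%); with up to 2 mismatches it was 2 of 24 (8.33%), against 567 of 27025 (2.1%). A single hexamer lay in 6 of 24 (25%), against 21.3% of all genes. Among the 11552 tested genes with a promoter, 1 had an exact match and 165 (1.43%) a match with up to 2 mismatches. A single hexamer lay in 1834 of the tested genes (15.9%). The 2 members with a paired match are shown, the match in capitals and only bases before the start site. Sgk1 has a further start site in the table, whose best match had 2 mismatches. The Sgk1 stretch shown, exact, is chr10:21993671-21993745 on the plus strand and begins its match 189 bases before the start. The Sult1a1 stretch, with 2 mismatches, is chr7:126676419-126676482 on the minus strand and begins its match 34 bases before the start.
Sgk1: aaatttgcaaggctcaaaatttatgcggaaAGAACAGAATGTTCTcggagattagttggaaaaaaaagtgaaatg
Sult1a1: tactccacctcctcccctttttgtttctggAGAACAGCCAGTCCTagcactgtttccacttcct
Sult1a1 was 75.3-fold higher in M2c than in M0 (adjusted p = 5.3e-12). Sgk1, a serum- and glucocorticoid-regulated kinase, was called in no comparison: it read 3.58, 5.12 and 3.59 in the serum culture, 3.59, 3.45 and 3.47 in M2c, and 3.38, 3.23 and 3.01 in M0. Of its arrays only replicate 2 of the serum culture stood out. The match describes the letters of the promoter and says nothing of binding, and receptor sites far from the start were not read.

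Genes of the receptor machinery were called in equal number in each direction. Of 22 tested, 6 were higher and 6 lower in the serum culture than in M2c, beside 21.7% and 18.9% of all genes, and the median difference was 0.07, beside 0.03 over all genes. The calls of Hsp90ab1, Stip1 and Hspa8 were lost without single arrays. With the mean of a gene's probes, Ncoa3 (adjusted p = 0.48), Abcb1b (0.23), Crebbp (0.094) and Ncoa2 (0.053) were not called. The probe used for Abcb1b gave a log2 difference of -0.91, and its others 0.27 and -0.41. For Crebbp the values were -0.59, and 0.17 and -0.33. The call of Ep300 was among those lost with normexp background correction (0.13). Nr3c1, the receptor, had 1.86, 1.64 and 1.74 in the serum culture and 1.76, 1.55 and 1.55 in M2c, a difference of 0.13 (SE 0.15, adjusted p = 0.56). Its other probes gave differences of 0.74, 0.64 and 0.15, and the mean of all its probes gave 0.42 (adjusted p = 0.034).

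Hsd11b1, the enzyme that regenerates active glucocorticoid inside cells, was higher in the serum culture. Its arrays read -1.51, -0.89 and -1.86 there, -2.47, -2.58 and -2.86 in M2c, and -3.58, -3.65 and -3.29 in M0, with no overlap. The difference was 2.32-fold from M2c (log2 1.22, SE 0.37, adjusted p = 0.01; 0.073 without replicate 2 of the serum culture) and 4.25-fold from M0 (adjusted p = 8.3e-05). Hsp90aa1, the inducible Hsp90 chaperone, was 2.41-fold above M2c (log2 1.27, SE 0.08, adjusted p = 7.3e-12), and the co-chaperone Fkbp4 was 1.44-fold above it (adjusted p = 0.0013). Ncoa1, a receptor coactivator, was 2.05-fold lower than in M2c (log2 -1.04, SE 0.17, adjusted p = 1.9e-05), where dexamethasone had raised it 2.21-fold over M0.

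Among inflammatory genes that glucocorticoids lower, more were lower than higher against M0 in both groups. Of 30 tested, the serum culture had 15 lower and 6 higher than M0 (2 or 3 higher without replicate 2 or 3 of M0 or replicate 2 of the serum culture), and M2c had 8 lower and 3 higher. The medians were -0.75 and -0.59. With genes below background in the dimmer group set at their bounds, they were -0.62 and -0.24. Directly against M2c the serum culture had 10 lower and 7 higher, beside 18.9% and 21.7% of all genes. The shares of all genes against M0 were 13.4% lower and 17.8% higher in the serum culture. In M2c they were 10% lower and 10.4% higher. Tnf, the cytokine, read -1.10, -1.47 and -0.62 in the serum culture, -1.79, -1.55 and -1.41 in M2c, and 1.1, 0.51 and 0.96 in M0. It was 3.78-fold below M0 in the serum culture (adjusted p = 7.7e-05) and 5.43-fold below it in M2c (adjusted p = 6.9e-06), and the serum culture and M2c overlapped (log2 0.52, SE 0.34, adjusted p = 0.24). The monocyte-attracting chemokine Ccl7 was 4.98-fold below M0 in the serum culture (adjusted p = 0.003) and 3.82-fold below it in M2c (adjusted p = 0.018).

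Other members of that list split the groups. Ccl12, a chemokine that acts through Ccr2, was 49.2-fold lower in the serum culture than in M2c, on signal above background on 1 of 3 arrays of the serum culture (adjusted p = 1.8e-10), while M2c and M0 differed by 0.11 (SE 0.44, adjusted p = 0.92). Tlr2, a receptor for bacterial lipoproteins, was 10.1-fold lower (adjusted p = 1.2e-06), with levels of -0.29, -1.29 and -0.62 against 2.85, 2.40 and 2.57. The neutrophil-attracting chemokines went the other way. Cxcl1 was at least 3.92-fold (adjusted p = 7e-05), Cxcl3 at least 3.89-fold (adjusted p = 0.011) and Cxcl2 7.33-fold higher (adjusted p = 0.00022) in the serum culture than in M2c. Vcam1, an adhesion molecule, was above M0 in both groups, 9.27-fold in the serum culture and 37.6-fold in M2c, each against an M0 signal above background on 1 of 3 arrays.

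The 10 genes with the largest rise in M2c over M0 were chosen on the same M2c arrays, so their position below M2c in the serum culture is partly set by that choice and is given as a description. Jaml, an adhesion molecule of leukocytes (probe at chr9:44858398-44858457), read 5.30, 5.33 and 4.95 in M2c, -3.50, -3.72 and -3.89 in the serum culture, and -3.60, -4.06 and -4.63 in M0. It was 475-fold lower in the serum culture than in M2c (log2 -8.89, SE 0.38, adjusted p = 6.7e-15), the largest fitted fall of the comparison, and did not differ detectably from M0 (log2 0.40, SE 0.38, adjusted p = 0.47). Strip2 was at least 15.6-fold lower (adjusted p = 1.7e-07) and Mrap, which escorts the ACTH receptor, 16.7-fold lower (adjusted p = 2e-06). Mrap also exceeded M0 in the serum culture, by 5.52-fold on an M0 signal above background on 1 of 3 arrays (adjusted p = 0.0013, and 0.6 with normexp background correction). Dnah2, a dynein heavy chain, had 1.17, 1.96 and 1.22 in the serum culture, 3.43, 3.40 and 3.46 in M2c, and -2.43, -2.63 and -2.79 in M0. The serum culture was 16.7-fold above M0 (adjusted p = 2.1e-08) and 3.95-fold below M2c.

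For 4 of those 10 genes, replicate 2 of M2c stood well below the other arrays of its group. Adamts20 read 2.68, -1.45 and 2.80 in M2c, Hoxd13 1.47, -3.02 and 1.42, Cyp4x1 1.48, -2.74 and 1.5, and Itgb3 6.90, 4.37 and 6.95. Against M2c the serum culture was at least 136-fold lower for Adamts20, at least 52.1-fold lower for Hoxd13 and 78.1-fold lower for Cyp4x1 (above background on 1 of 3 arrays of the serum culture). For Itgb3, the β3 integrin, the probe used gave a log2 difference of -5.99 and a second probe 4.28, and the mean of its probes was not called (-0.86, adjusted p = 0.097), so no direction is drawn for that gene.

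Of the 10 genes that dexamethasone lowered most, the serum culture kept some at the M0 level and not others. Egr2, a zinc finger factor of macrophage activation, read 4.11, 4.92 and 4.57 in the serum culture and 4.77, 4.51 and 4.57 in M0, against 0.70, -0.15 and -0.22 in M2c, a 21.5-fold difference from M2c (adjusted p = 1.1e-07). Mast4 was at least 9.21-fold (adjusted p = 6.6e-12) and F3, which encodes tissue factor, at least 5.66-fold (adjusted p = 1.9e-06) above M2c, and neither was called against M0 (log2 0.16 and 0.41). Rgs16, which shortens G protein signalling, was instead low in both: -4.00, -3.48 and -3.80 in the serum culture, -3.64, -5.43 and -5.59 in M2c, and 0.05, -0.90 and -1.28 in M0. It was 8.28-fold below M0 in the serum culture (adjusted p = 3.5e-05), as Nanos1 was by at least 11.3-fold (adjusted p = 9e-07).

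The 10 largest rises in the serum culture over M2c were Eef1a2, Ear1, Ear10, Armcx4, Egln3, Ocstamp, Ear6, Arg1, Cav1 and Dio2. Ear1, an eosinophil-associated ribonuclease (probe at chr14:42698911-42698970), read 0.41, 0.09 and 0.49, at least 63.4-fold above M2c (adjusted p = 2.1e-10); Ear10 and Ear6 were at least 39.8-fold and at least 24.8-fold higher, and the 3 are close copies whose probes may cross-hybridise. Arg1, which turns arginine into ornithine (probe at chr10:24605804-24605863), read 3.95, 5.42 and 4.74 in the serum culture, -1.83, -1.02 and -2.37 in M2c, and -4.27, -4.17 and -4.88 in M0. It was 86.9-fold above M2c (log2 6.44, SE 0.40, adjusted p = 3.8e-12) and 564-fold above M0 (adjusted p = 1.4e-14), and M2c was 6.49-fold above M0 (adjusted p = 1.7e-05, and 0.16 with normexp background correction). Cav1, the caveolae scaffold, was 86.3-fold above M2c (adjusted p = 1.3e-10), and Dio2, which activates thyroid hormone, 77.7-fold (adjusted p = 1.2e-07). A second Cav1 probe gave a smaller log2 difference, 4.29 beside 6.43. Egln3 was 119-fold higher, on a signal above background on 2 of 3 M2c arrays (adjusted p = 2.9e-11), and Armcx4 at least 30.8-fold (adjusted p = 6e-13).

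Genes of glycolysis and hypoxia were higher in the serum culture than in both other groups. Of 30 tested, 22 were higher than in M2c and none was lower, with a median of 1.01, on 1 probe a gene. All genes tested had 21.7% higher, 18.9% lower and a median of 0.03. Against M0, 20 of the 30 were higher and none lower, beside 17.8% and 13.4% of all genes. M2c had 12 lower and none higher than M0 (3 higher with a replicate block in a fit of those 2 groups). For M2c against M0 the shares of all genes were 10% lower and 10.4% higher. Vegfa, the vascular growth factor, read 4.01, 4.32 and 4.02 in the serum culture, 0.67, 0.67 and 1.08 in M2c, and 2.06, 1.85 and 1.88 in M0, 9.95-fold above M2c (adjusted p = 1.9e-12). The probes of the glucose transporter Slc2a3 disagreed: the one used gave a log2 difference from M2c of 0.69, and another -6.70, with levels of -7.21 in the serum culture (above background on 0 arrays), -0.51 in M2c and -7.67 in M0. The glucose transporter Slc2a1 was 5.29-fold above M2c (adjusted p = 6.8e-08), and the prolyl hydroxylase Egln3 had 1.89, 1.20 and 1.47 against -5.49, -4.80 and -5.85.

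Genes of the NRF2 response to oxidative stress were also higher. Of 25 tested, 20 were higher and 1 lower than in M2c (median 1.30), and 18 were higher and 2 lower than in M0. M2c had 2 higher and 6 lower than M0. The shares of all genes were 21.7% higher and 18.9% lower against M2c, and 17.8% and 13.4% against M0. For M2c against M0 they were 10.4% and 10%. The 1 gene lower than in M2c was Nfe2l2, which encodes NRF2 itself (log2 -0.39). Slc7a11, the cystine transporter, was 9.35-fold above M2c (adjusted p = 8.7e-06), and the glutathione transferase Gsta3 19.2-fold (adjusted p = 4.5e-08), with levels of 5.18, 4.62 and 4.73 against 0.55, 0.95 and 0.26.

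**Figure D4:**
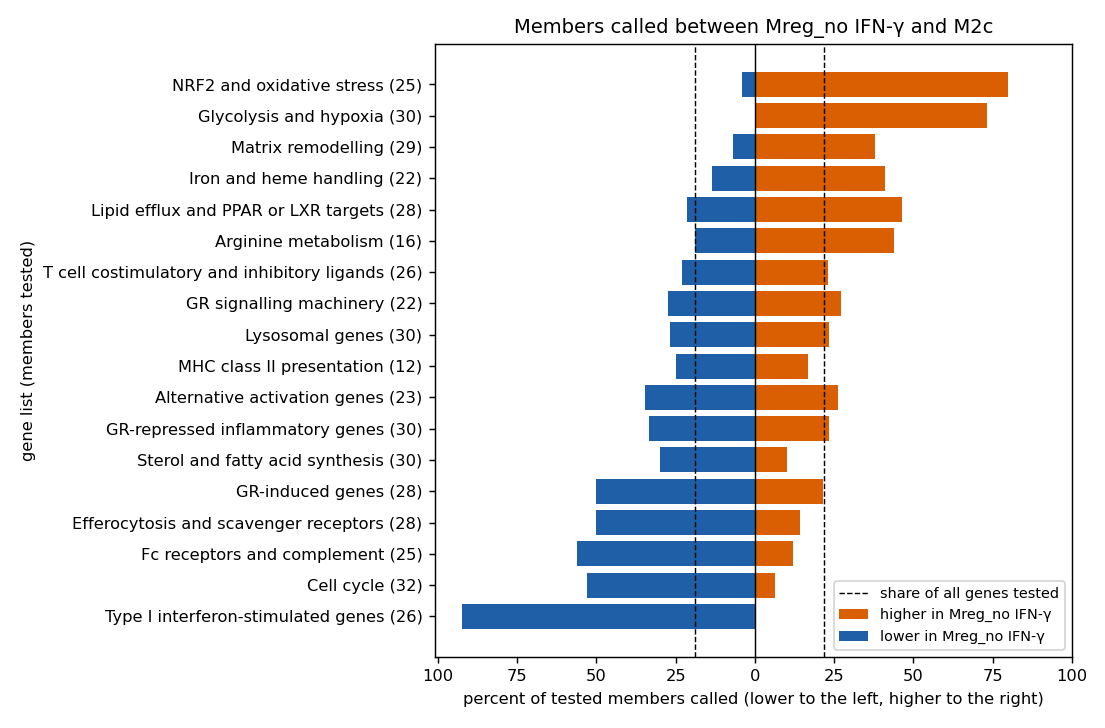
Bars give the percentage of each list's tested members called higher (right) or lower (left) in the serum culture than in M2c, with the number tested in brackets. Dashed lines mark the same share over all genes tested, 21.7% higher and 18.9% lower. Interferon-stimulated genes lie at the lower end (24 of 26 lower) and NRF2 genes at the upper end (20 of 25 higher).

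Type I interferon-stimulated genes were low in the serum culture. In the serum culture 24 of 26 were lower than in M2c and none higher (median -2.33), and 25 were lower than in M0. Of all genes, 18.9% were lower and 21.7% higher than in M2c, and 13.4% were lower than in M0. Between M2c and M0, 25 of the 26 were not called, and 20.4% of all genes were called. With a replicate block in a fit of those 2 groups, 10 of the 26 were lower and 1 higher. Rtp4, a chaperone for membrane receptors, read -0.33, 1.27 and 0.75 in the serum culture, 5.34, 5.85 and 6.07 in M2c, and 5.87, 6.18 and 6.23 in M0. Its difference from M2c was 36.5-fold (adjusted p = 3.8e-10). Ifit3, an antiviral RNA-binding protein, was 29.2-fold lower (adjusted p = 5.2e-08) and Ifi44 at least 102-fold lower (adjusted p = 4.4e-08). Iigp1, an interferon-induced GTPase that ranked among the 10 largest falls, was at least 111-fold lower than in M2c (adjusted p = 2.6e-13) and at least 69.6-fold lower than in M0 (adjusted p = 3.8e-12).

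Cell cycle genes fell in both groups against M0. Of 32 tested, 29 were lower in the serum culture and 25 in M2c, and none was higher in either. The shares of all genes lower than M0 were 13.4% in the serum culture and 10% in M2c. The fall went further in the serum culture, with 17 lower and 2 higher than in M2c (median -0.71), beside 18.9% and 21.7% of all genes. Ccna2, the S phase cyclin, read -0.98, -2.14 and -0.80 in the serum culture, 1.02, 0.67 and 0.43 in M2c, and 1.97, 1.67 and 1.85 in M0. Its call between M2c and M0 was lost without replicate 2 or 3 of M2c or any replicate of M0 (adjusted p = 0.06 to 0.14). The call was also lost without a filter on dim probes (0.06) and within the scan day of replicates 2 and 3 (0.12). Plk1, a mitotic kinase, was 3.79-fold lower than in M2c (adjusted p = 6.4e-05) and 7.10-fold lower than in M0 (adjusted p = 5.5e-07).

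Of the genes for sterol and fatty acid synthesis, 17 of 30 were lower and none higher than M0 in each group. Over all genes, 13.4% were lower than M0 in the serum culture and 10% in M2c. Directly against M2c, 9 of the 30 were lower and 3 higher. Lipid efflux genes with PPAR and LXR targets had 13 of 28 higher and 6 lower than M2c. The shares of all genes against M2c were 21.7% higher and 18.9% lower. Apoc1, an apolipoprotein, was 8.61-fold lower (adjusted p = 1.7e-08). Dexamethasone raised it 11-fold over M0 (adjusted p = 9.8e-09), and the serum culture differed from M0 by 0.35 (SE 0.32).

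**Figure D5:**
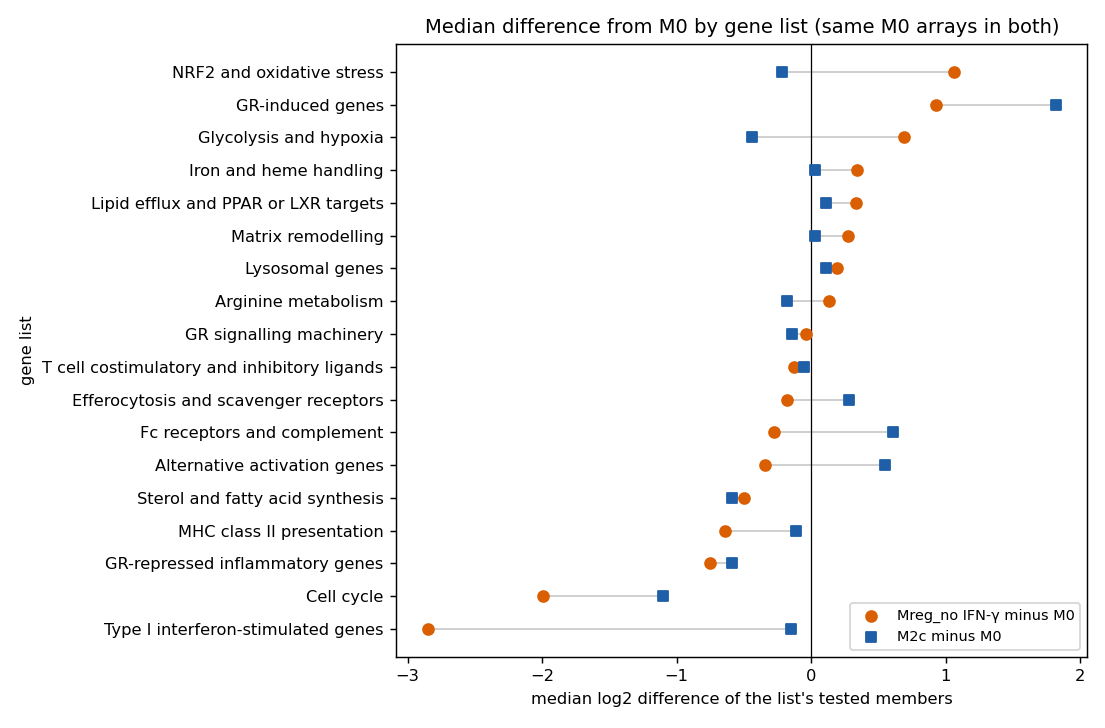
Each row is a gene list; circles give the median log2 difference of its tested members between the serum culture and M0, squares the same between M2c and M0, and both use the same M0 arrays. Both medians are above 0 for the glucocorticoid-raised list (0.93 and 1.82) and below 0 for cell cycle (-1.99 and -1.10), while the NRF2 list has 1.06 and -0.22. The medians use fitted differences, without bounds.

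Receptors of phagocytosis were more often lower than higher in the serum culture against M2c. Of 28 efferocytosis and scavenger genes, dexamethasone raised 8 and lowered 1 (13 and 4 with the replicate block of those 2 groups). Of all genes, it raised 10.4% and lowered 10%. The serum culture had 3 higher and 8 lower than M0, beside 17.8% and 13.4% of all genes. Against M2c it had 14 lower and 4 higher, beside 18.9% and 21.7% of all genes. These counts rest on 1 probe a gene and include Itgb3 and Cd300lf, whose probes disagreed. For Cd300lf the probe used gave a log2 difference from M2c of -3.46, and another gave 1.00. Of 25 genes for Fc receptors and complement, dexamethasone raised 8 and lowered 1 (13 and 2 with that block). The matching shares of all genes were 10.4% and 10%. The serum culture had 14 of the 25 lower and 3 higher than M2c, beside 18.9% and 21.7% of all genes. C1qa, a chain of complement C1q, read 1.83, -0.91 and 2.14 in the serum culture and 5.47, 5.83 and 5.55 in M2c, 24.2-fold lower (adjusted p = 2.2e-05), with replicate 2 of the serum culture lowest. C3 was 10-fold lower (adjusted p = 3.5e-07), Cfb at least 75.2-fold (adjusted p = 2.3e-09). Saa3, an acute phase protein, was 388-fold lower than in M2c (adjusted p = 2.8e-09), in which it exceeded M0 by 33.7-fold (adjusted p = 3.6e-05).

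Alternative activation genes had 6 of 23 higher and 8 lower than in M2c, and arginine metabolism 7 of 16 higher and 3 lower. The shares over all genes were 21.7% higher and 18.9% lower. Chil3, a chitinase-like lectin, read -0.46, 3.88 and -1.24 in the serum culture, 5.98, 6.25 and 6.12 in M2c, and 0.52, 1.33 and 1.65 in M0. Dexamethasone raised it 31-fold over M0 (adjusted p = 0.0054, and 0.095 within the scan day of replicates 2 and 3), and it was 41.9-fold lower in the serum culture than in M2c (adjusted p = 0.0012), with replicate 2 far above the other arrays; Chil4 is a close copy. Arg2, the mitochondrial arginase, was at least 12.9-fold higher in M2c than in the serum culture (adjusted p = 4.6e-06), opposite to Arg1. Mrc1, the mannose receptor, was 4.74-fold lower in the serum culture (adjusted p = 0.0018).

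The remaining pathway lists moved less or in both directions against M2c. Matrix remodelling had 11 of 29 higher and 2 lower, with the heparan sulfate proteoglycan Sdc1 66.7-fold higher (adjusted p = 9.7e-10). Iron and heme handling had 9 of 22 higher and 3 lower, and ceruloplasmin (Cp) was 18.7-fold lower, on signal above background on 1 of 3 arrays (adjusted p = 1.9e-06). Lysosomal genes had 7 of 30 higher and 8 lower, MHC class II presentation 2 of 12 higher and 3 lower, and T cell costimulatory and inhibitory ligands 6 of 26 higher and 6 lower, beside 21.7% higher and 18.9% lower over all genes. Entpd1, which clears extracellular ATP, was 4.10-fold lower (adjusted p = 1.5e-09) with levels of 0.84, 0.83 and 0.80 against 2.88, 2.72 and 2.98, and dexamethasone had raised it 3.40-fold over M0.

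Both groups carried the macrophage label. All 15 macrophage markers were above background on every array of the serum culture, M2c and M0, and their summed linear signal ran from 2160 to 2290, 2060 to 2180 and 2080 to 2240. Against M2c, 2 were higher and 5 lower, beside 21.7% and 18.9% of all genes. Csf1r, the M-CSF receptor, read 5.54, 5.27 and 5.46 in the serum culture and 7.10, 6.89 and 6.78 in M2c, 2.84-fold lower (adjusted p = 3.7e-07).

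Markers of Ly6C-high monocytes differed between the groups. Of 12 tested, the serum culture had 5 lower and none higher than M0, and M2c had 5 higher and 1 lower than M0. The shares of all genes were 13.4% lower and 17.8% higher in the serum culture, and 10.4% higher and 10% lower in M2c. Directly, 9 of the 12 were lower in the serum culture than in M2c and none higher (median -3.47, and -2.39 with bounds). That compares with 18.9% and 21.7% of all genes. The summed signal of the 12 was 255 to 403 in the serum culture, 420 to 487 in M2c and 245 to 268 in M0. Plac8 was 80.4-fold lower (adjusted p = 1.2e-09), Ly6c1 84.9-fold (adjusted p = 9.4e-10, with a close copy in Ly6c2) and haptoglobin (Hp) 69.3-fold (adjusted p = 4.7e-07). Vcan, Ms4a3 and Cd177 were below background on all arrays of the serum culture. Neutrophil and precursor markers had 6 of 15 lower and 1 higher than in M2c, beside 18.9% lower and 21.7% higher over all genes. Their sums were 4.56 to 5.45 in the serum culture, 28.7 to 31.2 in M2c and 7.39 to 8.95 in M0. Elane, Camp, Ngp and Cxcr2 were below background in both the serum culture and M2c. The part of these cells in the differences above was not tested.

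Osteoclast markers were more often higher than lower in the serum culture against M2c. Of 12 tested, 7 were higher and 2 lower, beside 21.7% and 18.9% of all genes. Itgb3 is 1 of the 2 lower. Without Itgb3, whose probes disagreed, their summed signal was 47.1 to 76.9 in the serum culture, 22 to 26.4 in M2c and 16.3 to 18.6 in M0. Ocstamp, which osteoclast precursors need for fusion, was 107-fold above M2c (adjusted p = 1.3e-11), with 2.18, 2.90 and 2.60 against -3.32, -4.54 and -4.68. A second Ocstamp probe gave a smaller log2 difference, 3.81 beside 6.74. The part of cells with osteoclast markers in the differences was not tested either. Dendritic cell markers had 3 of 14 higher and 3 lower, beside 21.7% and 18.9% of all genes, with sums of 67.9 to 118 in the serum culture and 79.1 to 89.4 in M2c, and Ccr7, Clec9a, Cd209a and Irf4 below background in both.

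The other lineages were compared in the same way. T and NK cell markers had 2 of 14 higher, B and plasma cell markers 1 of 10 lower, erythroid and megakaryocyte markers 1 of 13 higher and 1 lower, mast cell, basophil and eosinophil markers 1 of 13 lower, and stromal and endothelial markers 3 of 10 higher and 1 lower. Over all genes, 21.7% were higher and 18.9% lower in the serum culture than in M2c. Cd3d, Cd3g and Cd8a of T cells, Ms4a1 of B cells, Ms4a2 and Kit of mast cells and Col1a1 of stroma were below background on every array of the serum culture and M2c.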

How the data were processed

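RNA of 36 cultures was hybridised to 1-colour Agilent mouse arrays, and per the file headers the spots were read with Feature Extraction 10.5.1.1 (protocol GE1_105_Jan09), with probes placed on mm8. The deposited processed intensity of each spot, background-subtracted by that software, was used; control spots were left out. The authors' deposited series table holds log2 values of the same arrays (correlation of at least 0.9974 with log2 of the processed intensity, column medians 4.334 to 4.377); its scaling is not given in the sources used here, and it served as an alternative.

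Each array was scaled to its 75th percentile (464 to 596 in the arrays used) and put on the log2 scale. A probe entered if the software marked it as well above background on 3 or more of the 36 arrays (26478 of 41174 did), and 1 probe stood for each gene. Accessions named 24367 probes, symbols 6307 and synonyms 2425; 8075 kept the file's name. limma 3.58.1 in R 4.3.3 fitted all 12 groups, with Benjamini-Hochberg adjustment; the code was tested on simulated data. Genes were named by size of change among called genes with separate arrays, by list, and for the steroid lists by membership; list members and markers outside that rule, such as Nfkbia, Cxcr4, Sgk1, Tnf, Ccl7, Cxcl2, Vcam1, Tlr2, Mrc1 and Nfe2l2, were chosen after their values were seen. The members and lists were chosen with earlier results of these data known.

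Replicates of 1 number deviated together between the serum culture and M2c (r = 0.27, 0.2 and 0.138) and between M2c and M0 (0.319, 0.171 and 0.276). Between the serum culture and M0 they did not in every pair (0.161, 0.102 and 0.068). The main fit did not pair the arrays, so calls, SE and p-values are unpaired unless a replicate block is named. That block was fitted as an alternative only, and with it 4337 genes were called between M2c and M0 in place of 3598. The number of arrays limits the precision. Alternatives covered normalization, background, filters, probes, batches, blocks and single arrays left out.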

Additional observations from a re-analysis of the deposited data

How the results depend on the processing

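Most values kept their direction and their side of the threshold. For the serum culture against M2c, 1538 of 1617 values of named genes under other processing did so, 49 lost their call, 12 gained one, 4 called values turned, and 14 values called in neither setting changed sign. With the replicate block 8034 genes were called in place of 7145, and no count over all genes moved by over 1.5 times in that fit. Without 1 array the count ran from 6028 to 6493. Under normexp background correction the median over all genes moved from 0.03 to 0.25 for the serum culture against M2c, and H2-Aa (0.16), H2-Oa (0.37), Dpp4 (0.42) and Flt3 (0.14) turned to higher, none of them called. The same correction gave 3162 genes against M0 in place of 5483 and 2 glucocorticoid-raised genes lower than M0 in place of 4. Glucocorticoid-lowered genes higher than M0 numbered 6, but 1 with normexp, 2 in a fit of only the compared groups, 1 with a replicate block in that fit (chosen after seeing the data), and 2 to 7 without 1 array. The distance from the serum culture was 0.688 to M2c and 0.495 to M0 with normexp, and 0.839 and 0.714 with no filter; between M2c and M0 it was 0.559 with normexp, 0.613 with no filter and 0.663 with probes above background on at least 18 arrays. The cause of these shifts was not tested. Probes near background give only bounds.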
